A study of Mus musculus with 26 samples.

Results

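HMB supplementation without immunotherapy was compared with the unsupplemented diet in 13 of the 26 Panc02 tumors of the series, chosen by their titles as the 7 HMB and the 6 control tumors. Emphasis was placed on the 4050 of 19505 measured genes whose mean lay above background in both groups. Panc02 is a single murine pancreatic ductal adenocarcinoma cell line, and per the labels 200000 cells were injected subcutaneously into each mouse. Male C57BL/6 mice with an intact immune system were obtained at 6 to 8 weeks of age, per the study's methods. They ate the AIN-93G diet (control) or the same diet with 1% HMB (HMB), which started 1 week before injection. Per the methods these mice received an isotype control antibody in place of anti-PD1, an antibody that blocks the checkpoint receptor PD1 and that was given to the other groups, anti-PD1 (6 tumors) and anti-PD1 + HMB (7 tumors). Group sizes follow the titles, which differ from the series' design text. Each homogenized tumor gave RNA for 1 Clariom S array, to which every cell type of the excised tissue contributed, and no transcript reports whether a mouse ate HMB.

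HMB (β-hydroxy-β-methylbutyrate) is a metabolite of leucine, an amino acid that activates the growth-controlling kinase complex mTORC1, and HMB can be converted to HMG-CoA, a precursor of cholesterol. A transplanted pancreatic tumor holds cancer cells together with macrophages, fibroblasts, vessels and lymphocytes of the host. Interferon-gamma, made mainly by T and NK cells, induces guanylate-binding proteins, immunity-related GTPases, the chemokine Cxcl9 and the machinery of antigen presentation in macrophages and cancer cells. The comparison asks which of these programs differed in the tumor when the diet was supplemented with HMB.

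The authors deposited processed values on a log scale whose base was taken as 2, and every level and difference below is on that scale. Background was the 95th percentile of the negative-control probe sets, a log2 value of 11.06 as the median of the 13 arrays. Array medians lay between 6.97 and 7.05, and 3772 to 4489 genes per array lay above the array's own background. HMB tumor 4 had the fewest such genes, 3772, and the highest background of its own, 11.28. The number of arrays limits the precision, and the labels do not say whether tumors shared a cage or an array run. Of the macrophage-defining markers, all 4 measured (Adgre1, Csf1r, C1qa and Lyz2) were above background in both groups, as were Pdgfrb and Acta2 of fibroblasts and Cdh1, Krt8 and Krt18 of epithelium. The defining markers of T and NK cells (0 of 5), B cells (0 of 3), neutrophils (0 of 3), dendritic cells (0 of 3) and skeletal muscle (0 of 4) were not. Control tumor 4, HMB tumor 4 and HMB tumor 5 lay farthest from the other tumors on the first 2 principal components. The mean level of the 34 skeletal muscle genes was 4.58 to 4.81 in control tumors but 10.91 in HMB tumor 5, 6.89 in HMB tumor 3 and 6.85 in HMB tumor 7. The mean level of the 19 adipocyte genes was 7.44 to 8.77 in control tumors but 12.71, 11.89 and 11.65 in HMB tumors 2, 4 and 6. Less RNA per cell and fewer cells of a type cannot be told apart in whole tumors.

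No gene separated HMB from control tumors after adjustment. Among the gene lists described below with at least 5 members above background, the lowest median difference was that of the interferon-gamma response (-0.78) and the highest that of collagen chains (1.67, but 0.91 without control tumor 4 and 0.51 without the 3 tumors far out on the principal components). With limma and Benjamini-Hochberg adjustment, 0 of 19505 genes passed an adjusted p of 0.05, and the smallest adjusted p was 0.33, shared by 6 genes that all lay below background. Among the 4050 genes above background in both groups the smallest was 0.46. At an unadjusted p under 0.05 there were 1352 genes, 6.93% of those tested, with 612 higher (3.14%) and 740 lower (3.79%). Among the 4050 genes the corresponding number was 222, or 5.48%, of which 88 (2.17%) had a higher mean and 134 (3.31%) a lower mean with HMB. The median difference of these 4050 genes was -0.02, with 1829 higher (45.2%) and 2221 lower (54.8%). The 88 became 50 without HMB tumor 1. The 134 became 73 without HMB tumor 4, the array with the fewest genes above its own background, and 204 without HMB tumor 3. Without the 3 tumors far out on the principal components the numbers were 28 and 31. When each array was centered on its median they were 54 and 183, so that the lower genes made up 77.2% of both instead of 60.4%. Without the 3 HMB tumors high in adipocyte genes they were 77 and 59, and the lower genes made up 43.4%.

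**Figure D1:**
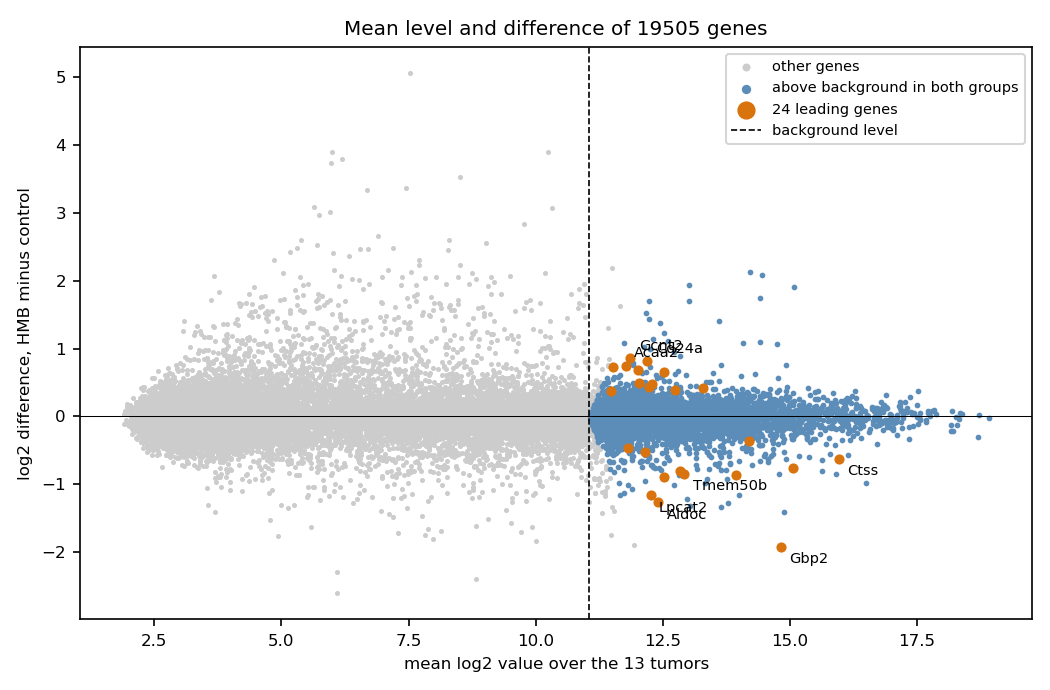
Log2 difference (HMB minus control) against the mean log2 value over the 13 tumors for each gene, with genes above background in both groups in blue, the 24 leading genes in orange and the background level of 11.06 as a dashed line. Gbp2, at -1.92, lies lowest of the genes above background.

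Values of the groups did not overlap for 2 higher genes (0.0494% of the 4050) and 5 lower genes (0.123%), which, apart from Lpcat2, are named here after their values were seen. Rab24, a small GTPase, ran from 11.10 to 11.5621 in control tumors and from 11.5628 to 12.07 in HMB tumors, so the groups nearly touched. Rcor1, a subunit of a corepressor complex, ran from 11.58 to 11.75 and from 11.83 to 12.04. Both were higher in every HMB tumor, but their differences were small, 0.42 (SE 0.15) and 0.25 (SE 0.11). Lower in every HMB tumor were Gatm, which makes the precursor of creatine (difference -1.17, SE 0.44), the lysosomal chloride transporter Clcn7 (-0.31, SE 0.14), Cttnbp2nl (-0.39, SE 0.16), Tmem68 (-0.41, SE 0.15) and Lpcat2. The groups nearly touched for Tmem68 (lowest control tumor 12.1119, highest HMB tumor 12.1107) and Cttnbp2nl (11.926 and 11.9219) as well. The adjusted p of these 7 genes in limma lay between 0.69 and 0.71.

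The 12 genes above background with the smallest p on the lower side included Ctss of the macrophage list, Gbp2 of the interferon-gamma list and other genes known from leukocytes. Lpcat2, an acyltransferase that makes platelet-activating factor in inflammatory cells, had a lowest value, median and highest value of 12.48, 12.95 and 13.25 in control and 10.52, 11.87 and 12.46 in HMB tumors. HMB tumors 4 and 5 were the lowest, and the difference was -1.17 (SE 0.33, limma adjusted p = 0.69). Ctss, the protease cathepsin S that trims the invariant chain of MHC class II molecules, was at 16.01, 16.30 and 16.58 in control and at 14.92, 15.73 and 16.20 in HMB tumors. Only HMB tumor 7 lay above the second-lowest control tumor, and the difference was -0.62 (SE 0.17, limma adjusted p = 0.69). Mpeg1, the pore-forming perforin-2 of macrophages, was at 14.00, 14.50 and 14.71 in control and at 12.67, 13.76 and 14.29 with HMB (-0.86, SE 0.26). Lair1, an inhibitory leukocyte receptor that binds collagen, had a difference of -0.89 (SE 0.28), with 1 of 7 HMB tumors above the control mean. Serpinb9, which inhibits granzyme B, differed by -0.80 (SE 0.24).

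Other leading lower genes act outside immunity or in many cell types. Tmem50b had the smallest p of the genes above background. Its lowest value, median and highest value were 12.75, 13.39 and 14.09 in control against 12.05, 12.45 and 13.25 in HMB tumors, a difference of -0.85 (SE 0.20, limma adjusted p = 0.46). Patl1, which helps remove the cap of mRNAs, ran from 12.26 to 12.76 in control and from 11.68 to 12.31 in HMB tumors (-0.53, SE 0.13, limma adjusted p = 0.46). For both, all 7 HMB tumors lay below the control mean, although the groups overlapped. Aldoc, the brain-type glycolytic aldolase, was at 12.11, 12.97 and 14.09 in control and 11.36, 11.92 and 12.51 with HMB (-1.27, SE 0.38). Apobec1, a cytidine deaminase that edits RNA, differed by -0.76 (SE 0.21), the mitochondrial ribosomal protein Mrpl49 by -0.47 (SE 0.14) and the RNA ligase Rtcb by -0.36 (SE 0.12). All 7 HMB tumors were below the control mean for each of these 4 genes.

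The 12 leading higher genes were mixed in function, and 2 of them work in mitochondrial fatty acid oxidation. Cd24a, a heavily glycosylated surface protein of epithelial and immune cells, was at 10.90, 11.85 and 12.26 in control and 12.18, 12.61 and 13.06 in HMB tumors (0.81, SE 0.24, limma adjusted p = 0.69). Only 1 control tumor reached the range of the HMB tumors. Gcnt2, a glycosyltransferase that branches poly-N-acetyllactosamine chains, was at 10.71, 11.30 and 12.56 in control and 11.82, 12.16 and 12.87 with HMB (0.86, SE 0.26). Acaa2, the mitochondrial thiolase that ends each cycle of β-oxidation, was at 10.97, 11.32 and 11.76 in control and 11.55, 12.21 and 12.67 with HMB (0.75, SE 0.24). Hadh, the dehydrogenase one step before it, differed by 0.43 (SE 0.15). For all 4 genes every HMB tumor was above the control mean. Fosl2, a subunit of the transcription factor AP-1, differed by 0.68 (SE 0.22) and the lysosomal membrane protein Gpr137b by 0.72 (SE 0.23). Smaller differences belonged to Lima1, which bundles actin (0.65, SE 0.23), B230219D22Rik (0.50, SE 0.17), Pgrmc2, which carries heme (0.47, SE 0.15), Bclaf1, a nuclear regulator of transcription and splicing (0.41, SE 0.14), Rsrc2 (0.38, SE 0.14) and Gtf3c2, part of the factor that recruits RNA polymerase III (0.38, SE 0.14).

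**Figure D2:**
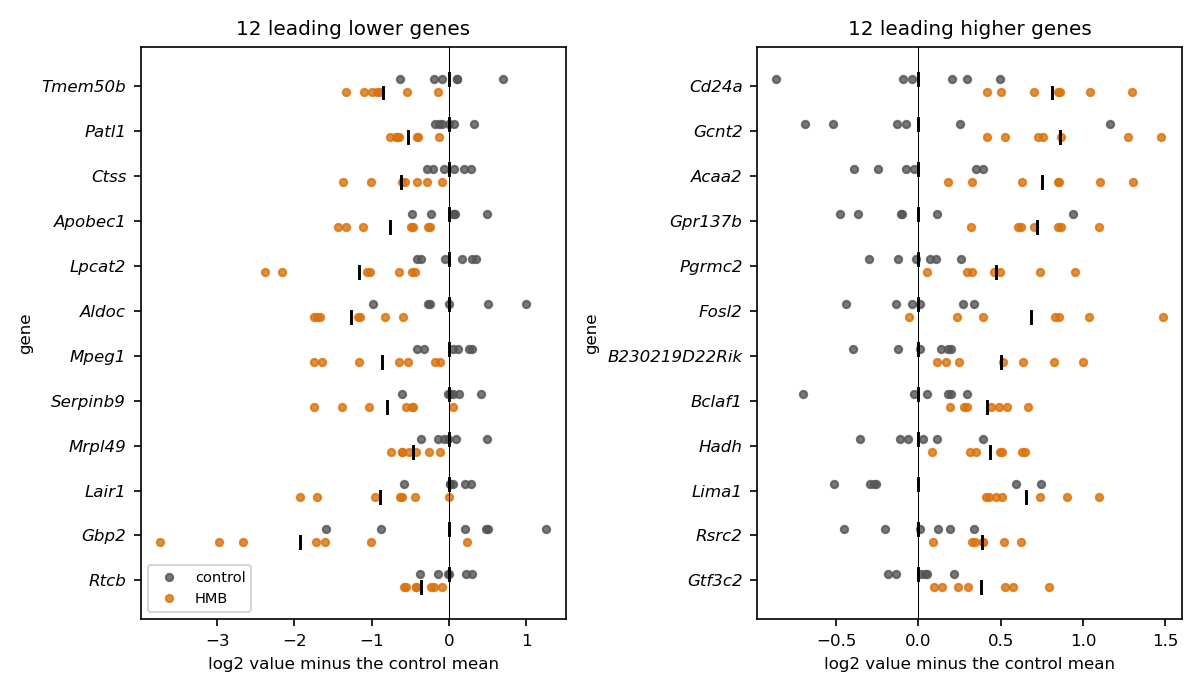
Log2 value minus the control mean for each tumor (control gray, HMB orange, mean as a black bar) for the 12 lower and 12 higher genes with the smallest p. Gbp2 spreads most, with HMB tumors from 12.12 to 16.09 on the log2 scale.

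Genes of the interferon-gamma response had lower means in HMB tumors throughout. Of 31 measured, all 31 were lower, 13 of them at an unadjusted p under 0.05, beside 3.79% of all genes. Of the 19 above background in both groups, all 19 were lower, 8 of them at that threshold. Among the 4050 genes 54.8% were lower, 3.31% at that threshold. The median difference of the 19 was -0.78, against -0.02 for the 4050 genes. No member passed the adjusted threshold of limma, and the 31 genes of a response induced together do not count as independent. Gbp2, a guanylate-binding protein that attacks the vacuoles of intracellular microbes, was at 14.27, 16.20 and 17.12 in control and at 12.12, 14.13 and 16.09 in HMB tumors (-1.92, SE 0.62, limma adjusted p = 0.69). HMB tumor 7 was the exception at 16.09, and the other 6 lay below 5 of the 6 control tumors. Cxcl9, the chemokine that draws T cells through Cxcr3, was at 13.40, 16.08 and 16.54 in control and 11.64, 14.48 and 16.50 with HMB (-1.41, SE 0.59). The low control value was that of tumor 3.

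Irgm2, an immunity-related GTPase, was at 12.60, 13.81 and 14.69 in control and 10.94, 12.44 and 13.74 in HMB tumors (-1.22, SE 0.50). Tgtp2, another such GTPase with a near-identical copy that may share its probes, differed by -1.16 (SE 0.49). The relatives Gbp3 (-1.33, SE 0.57), Gbp4 (-1.33, SE 0.59), Gbp7 (-1.27, SE 0.55) and Irgm1 (-0.98, SE 0.45) followed, and similarity within these families makes the split between members uncertain. Irf1, the transcription factor that carries the signal onward, differed by -0.78 (SE 0.40), without reaching the unadjusted threshold. The receptor and kinases of the pathway were close to equal: Ifngr1 -0.23 (SE 0.23), Ifngr2 -0.19 (SE 0.15), Jak1 -0.01 (SE 0.29) and Jak2 -0.08 (SE 0.24). Igtp, Iigp1 and Cd274, the ligand of PD1, had means of 12.95, 12.30 and 10.93 in control and 11.05, 10.90 and 9.71 in HMB tumors, so they lay below background with HMB, and Cd274 in both groups. Ifng itself was below background in both groups, at means of 6.15 and 4.99.

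The mean level of the 19 genes per tumor ran from 12.72 to 14.37 in control and from 11.91 to 13.99 in HMB tumors. HMB tumor 5 was the lowest and tumor 7 the highest of its group, and 3 HMB tumors lay below every control tumor. The median difference was between -0.94 and -0.60 with each tumor left out in turn and -0.55 without the 3 tumors far out on the principal components. It was -0.82 without the 3 HMB tumors high in adipocyte genes and -0.70 without the 3 high in muscle genes. The 26 measured genes of T and NK cells, the sources of interferon-gamma, had 22 lower and 4 higher means, with 0 at an unadjusted p under 0.05 in either direction. Their mean level ran from 5.75 to 7.50 in control and from 5.40 to 7.87 in HMB tumors, and none was above background. The 7.87 was that of HMB tumor 2, one of the tumors high in adipocyte genes. The mean level of the 15 B and plasma cell genes was 7.94 in HMB tumor 2 and 6.56 in HMB tumor 6, against 5.21 to 5.62 in control tumors. The part of the T and NK cell genes in the difference of the interferon-gamma genes was not tested.

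Type I interferon-stimulated genes, induced by the antiviral interferons, were less apart. Of 11 above background, 9 were lower and 2 higher, 0 at the unadjusted threshold, with a median difference of -0.10, which was -0.17 without HMB tumor 7 and 0.0056 without HMB tumor 5. Oasl2, an oligoadenylate synthetase relative, differed by -0.64 (SE 0.53) and Bst2, the virion tether tetherin, by -0.39 (SE 0.36). In both, the difference was of the size of its SE or little more.

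Promoters of 3 of these genes are shown because interferon response elements were searched in them, after the values were known. The 250 bases before the start of each gene come from RefSeq (GRCm38.p6), in the direction of transcription, with matches in capitals. The motifs searched on both strands were GAAANNGAAA (the interferon-stimulated response element, ISRE) and TTCNNNGAA (the gamma-activated site, GAS), which do not overlap in the windows shown. Gbp2 (chr3:142620413-142620662, plus strand) held 1 ISRE on the opposite strand. Irgm2 (chr11:58214727-58214976, plus strand) held 1 GAS followed closely by 1 ISRE. Ctss (chr3:95526536-95526785, plus strand) held 1 ISRE near its start.
Gbp2: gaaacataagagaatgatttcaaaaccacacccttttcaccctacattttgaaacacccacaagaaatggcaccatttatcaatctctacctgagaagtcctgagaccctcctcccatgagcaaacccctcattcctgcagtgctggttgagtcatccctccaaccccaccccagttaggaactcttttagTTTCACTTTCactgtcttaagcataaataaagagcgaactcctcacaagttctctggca
Irgm2: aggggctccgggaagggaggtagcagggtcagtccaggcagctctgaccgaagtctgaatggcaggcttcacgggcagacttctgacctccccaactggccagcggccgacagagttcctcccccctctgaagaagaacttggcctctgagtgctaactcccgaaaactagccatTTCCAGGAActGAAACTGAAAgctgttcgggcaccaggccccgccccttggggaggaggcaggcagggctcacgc
Ctss: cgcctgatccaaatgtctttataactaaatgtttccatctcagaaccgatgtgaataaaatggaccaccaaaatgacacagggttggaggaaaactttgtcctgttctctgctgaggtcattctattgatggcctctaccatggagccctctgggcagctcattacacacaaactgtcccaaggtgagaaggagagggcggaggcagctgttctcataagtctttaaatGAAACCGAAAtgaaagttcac
Of 32851 promoters of 27025 genes, 2.98% held the ISRE and 7.02% the GAS. A list gene was counted if any of its promoters matched, so the lists and this share are not counted alike. Among the 16 of 19 interferon-gamma genes above background with a promoter in the table, 7 held the ISRE and 4 the GAS. The interferon-gamma list was written from genes known to respond to interferon, so its matches do not bear on HMB. Among 15 matched macrophage genes, 3 (Aif1, Ctss and Cybb) held the ISRE and 1 (Fcgr1) the GAS. The ISRE was held by 2 of 11 MHC class I and 1 of 6 MHC class II genes, and the GAS by 0 of either. Of 6 matched cholesterol synthesis genes, 0 held the ISRE or the GAS. A match describes letters in this window and is not a measured binding site.

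Genes of antigen presentation were lower with HMB as well. For MHC class II, 7 of 7 genes above background were lower, with a median of -0.65. At the unadjusted threshold were 4 (H2-Aa, H2-Eb1, H2-DMb1 and Ctss), beside 3.31% of the 4050 genes. H2-Aa, the alpha chain of the I-A molecule, was at 16.26, 17.07 and 17.61 in control and 14.32, 16.11 and 17.62 in HMB tumors (-0.98, SE 0.38, limma adjusted p = 0.69). The highest HMB tumor reached the highest control tumor, whereas 6 of 7 lay below the control mean. H2-Eb1 differed by -0.81 (SE 0.33) and H2-DMb1, which loads peptides, by -0.85 (SE 0.41). H2-Ab1 did not reach the threshold (-0.65, SE 0.32). Ctss also counts in the macrophage and lysosomal lists, and Lgmn in the lysosomal list, so these counts share genes. Of the lysosomal partners, Ifi30 differed by -0.33 (SE 0.21) and Lgmn by -0.24 (SE 0.15). Ciita, the master regulator of class II genes, was below background in both groups (9.39 and 8.19).

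For MHC class I, 9 of 11 genes above background were lower, 4 at the unadjusted threshold beside 3.31% of the 4050 genes, with a median of -0.44. B2m, the invariant light chain, was at 18.62, 18.92 and 18.99 in control and 18.26, 18.48 and 18.90 with HMB, a small difference of -0.30 (SE 0.12). H2-K1, a classical heavy chain, differed by -0.57 (SE 0.26), the peptide-loading protein Tapbp by -0.58 (SE 0.25) and the trimming peptidase Erap1 by -0.64 (SE 0.25). Tap1, the peptide transporter, differed by -0.76 (SE 0.39). The chaperones Canx (0.08, SE 0.14) and Pdia3 (0.26, SE 0.16), which also serve general protein folding, were on the other side. The inducible proteasome subunits Psmb9 and Psmb10 had means of 11.72 and 11.90 in control and 10.46 and 10.94 with HMB, below background in the second group, whereas the 24 constitutive proteasome genes had a median difference of 0.00 (12 higher, 12 lower).

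Macrophage markers were lower as a group, by less than the interferon-gamma genes. Of 19 above background, 19 were lower, with a median of -0.45. At the unadjusted threshold were 4 (Ctss, Cybb, C1qb and C1qc), beside 3.31% of the 4050 genes. Cybb, the catalytic subunit of the phagocyte NADPH oxidase, was at 14.69, 15.21 and 15.80 in control and 13.66, 14.65 and 15.59 with HMB (-0.63, SE 0.25). C1qb and C1qc, complement proteins made by tissue macrophages, differed by -0.53 (SE 0.24) and -0.59 (SE 0.27). Lineage-defining members were lower without reaching the threshold: Csf1r, the receptor for the growth factor of macrophages, -0.35 (SE 0.20), Adgre1 -0.55 (SE 0.41), Lyz2 -0.40 (SE 0.22) and C1qa -0.39 (SE 0.23). Csf1, the growth factor itself, differed by -0.41 (SE 0.25). The mean level of the 19 markers ran from 14.29 to 15.13 in control and from 13.51 to 14.92 in HMB tumors, with tumors 4 and 5 lowest. The median of -0.45 was -0.13 without the 3 tumors far out on the principal components, 2 of which are these. The corresponding MHC class II median was -0.28.

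**Figure D3:**
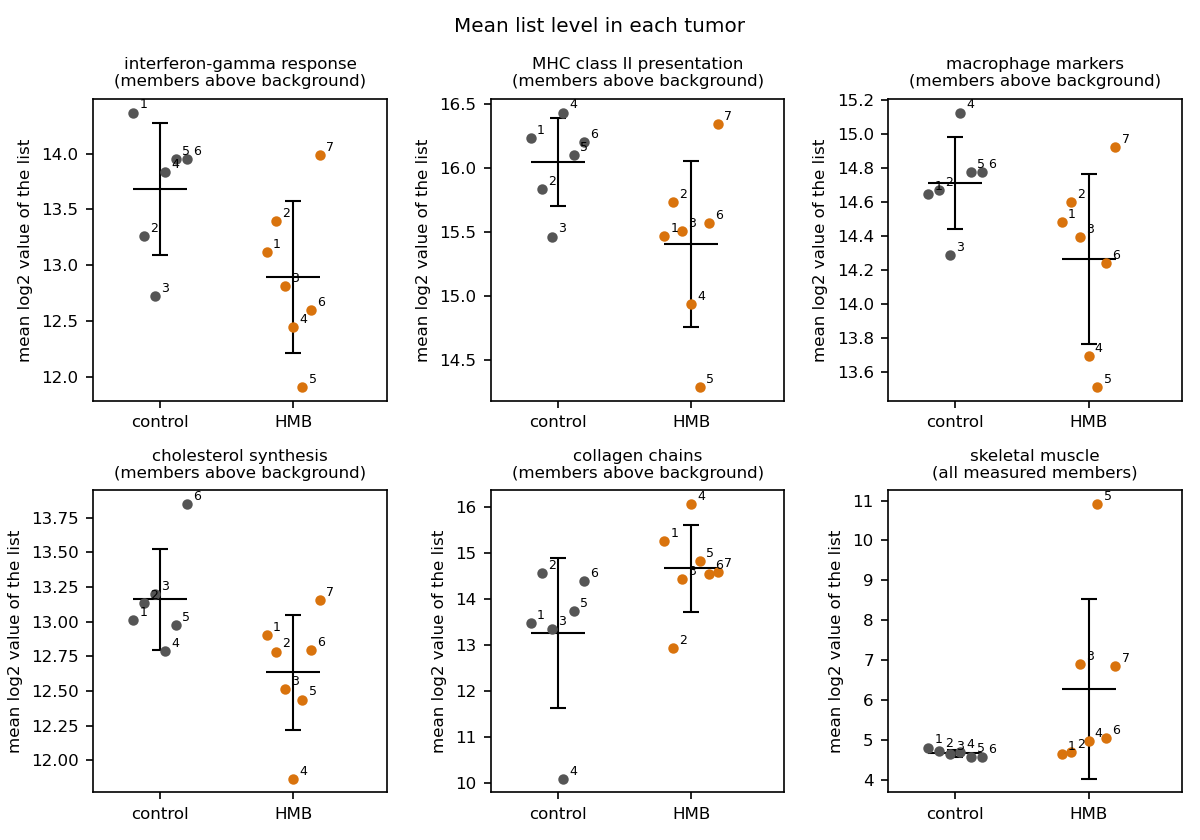
Mean log2 value of 6 gene lists in each tumor, with the tumor number beside each point and the mean and SD of the group in black. The interferon-gamma, MHC class II and macrophage lists are highest in HMB tumor 7 and lowest in HMB tumor 5 within their group, and muscle genes reach 10.91 in HMB tumor 5.

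Genes associated with alternatively activated (M2-like) macrophages did not share this direction. Of 8 above background, 5 were higher and 3 lower, with a median of 0.02, which became 3 higher and 5 lower when each array was centered on its median. The median was -0.075 without control tumor 1, 0.19 without HMB tumor 5 and 0.42 without the 3 tumors far out on the principal components. Cbr2, a carbonyl reductase, was at 10.98, 12.14 and 13.29 in control and 11.64, 13.33 and 14.06 with HMB (1.12, SE 0.50). Tgfbi, a matrix protein induced by TGF-β, was lower at -0.58 (SE 0.23), with 7 of 7 HMB tumors below the control mean. The mannose receptor Mrc1 differed by 0.09 (SE 0.36). Arg1 was below background in both groups and had a difference of 0.59 (SE 0.57). The study reported less Arg1 in tumor macrophages with HMB by mass cytometry, and fewer M2-like macrophages inferred from tumor arrays by digital cytometry. Protein per macrophage and an inferred cell fraction are other measures than RNA levels in whole tumors. Of 25 M2-like genes measured, 19 were higher, 4 at the unadjusted threshold, beside 9260 of all 19505 genes, 612 (3.14%) at it. The 4 included the scavenger receptor Cd163 (1.46, SE 0.44), the folate receptor Folr2 (1.67, SE 0.62) and Lyve1 (2.46, SE 1.15), all 3 below background in both groups. Without the 3 HMB tumors high in adipocyte genes 17 were higher, only Cd163 and Folr2 at the threshold. Without the 3 tumors far out on the principal components 23 were higher, 4 at the threshold. Of 19 M1-like genes measured, 15 were lower, 2 at the threshold beside 3.79% of all genes. Only Ptgs2 (-0.15, SE 0.38) and Tlr4 (0.01, SE 0.18) were above background.

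Lysosomal proteases and enzymes were lower in 14 of 16 genes, with a median of -0.18. Without the 3 tumors far out on the principal components the median was -0.015. At the unadjusted threshold were 3, beside 3.31% of the 4050 genes: Ctss, Ctsz (-0.36, SE 0.16) and Ctsa (-0.35, SE 0.16). Ctsl, a protease of many cell types, stood on the other side at 0.37 (SE 0.18). Genes of TNF and NF-κB signaling were divided, with 5 higher and 5 lower of 10 and 0 at the threshold. Vcam1, the endothelial and stromal adhesion molecule, had a difference of -0.85 (SE 0.44) and the NF-κB subunit Rela one of 0.14 (SE 0.12).

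Cholesterol synthesis genes were lower with HMB. Of 7 above background, 7 were lower, 3 at the unadjusted threshold beside 3.31% of the 4050 genes, with a median of -0.44. Cyp51, the lanosterol demethylase, was at 12.64, 13.22 and 14.16 in control and 11.36, 12.60 and 13.05 with HMB (-0.79, SE 0.33, limma adjusted p = 0.69). All 7 HMB tumors were below the control mean, with tumor 4 far below the others of its group. Fdft1, squalene synthase, differed by -0.66 (SE 0.28) and Insig1, a sterol sensor that holds back the pathway, by -0.65 (SE 0.28). Hmgcs1, which makes HMG-CoA in the cytosol, differed by -0.43 (SE 0.32). Srebf2, the transcription factor of the pathway, differed by -0.38 (SE 0.20). The mean level ran from 12.79 to 13.85 in control and from 11.87 to 13.15 with HMB. Unlike the macrophage median, the cholesterol median was about the same, -0.46, without the 3 tumors far out on the principal components. Without the 3 HMB tumors high in adipocyte genes Cyp51 differed by -0.46 and no longer reached the unadjusted threshold.

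Genes of leucine breakdown and HMB metabolism showed no common direction, with 3 higher and 4 lower of 7 above background and a median of -0.07, which was 0.028 without HMB tumor 2. Dld, a subunit of the branched-chain ketoacid dehydrogenase, differed by 0.21 (SE 0.15) and Slc3a2, the heavy chain of the leucine transporter, by -0.19 (SE 0.13). The mTORC1 genes were lower in 13 of 13 above background, beside 54.8% of the 4050 genes. Their differences were small, with a median of -0.14, or -0.24 without control tumor 4. Of 27 measured, 20 were lower and 7 higher, with 1 at the unadjusted threshold in each direction. Rragc, a GTPase that senses amino acids, was the only member above background at the threshold (-0.32, SE 0.14). Rps6, the ribosomal protein whose phosphorylation is read as mTORC1 activity, was at 18.26, 18.35 and 18.49 in control and 18.18, 18.36 and 18.44 with HMB (-0.04, SE 0.09). Phosphorylation is not measured by an array.

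Fatty acid oxidation genes were higher in 8 of 10, 2 at the unadjusted threshold (Acaa2 and Hadh), beside 2.17% of the 4050 genes. The median was 0.24, or 0.16 without control tumor 4 and 0.14 without the 3 tumors far out on the principal components. Eci2 differed by 0.33 (SE 0.20), Acadl, the long-chain dehydrogenase, by 0.31 (SE 0.20) and Etfa, an electron carrier, by 0.25 (SE 0.15). The mean level ran above the control mean in 7 of 7 HMB tumors, and was highest in tumor 2, one of the 3 with high adipocyte genes. Acaa2 was at 12.47, 12.67 and 12.21 in those 3 HMB tumors (2, 4 and 6) and between 11.55 and 12.22 in the other 4. Without tumors 2, 4 and 6 its difference was 0.50, no longer at the unadjusted threshold, and that of Hadh was 0.38, still at it. Oxidative phosphorylation genes were higher in 19 and lower in 10 of 29, with a median of 0.07, which ran from 0.026 without control tumor 3 to 0.15 without HMB tumor 3. Cox6b1 was at the threshold (0.35, SE 0.14), and Ndufv1 differed by 0.32 (SE 0.17). The Pdk4 and Cpt1b genes, which restrain glucose oxidation and admit fatty acids to muscle mitochondria, had differences of 2.97 (SE 1.03) and 1.15 (SE 0.26), but lay below background in both groups. Glycolysis and hypoxia genes had a median of -0.01, with 7 higher and 8 lower.

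Collagen chains and other matrix genes were higher in the means but spread widely. Of 6 collagen chains above background, 6 were higher, with a median of 1.67. Col1a1, the main fibrillar collagen, was at 7.47, 14.33 and 15.33 in control and 12.51, 15.66 and 17.25 in HMB tumors (2.09, SE 1.15, limma adjusted p = 0.74). The lowest value was that of control tumor 4, whose mean collagen level of 10.09 lay far below the 13.34 to 14.57 of the other controls. Without this tumor the median was 0.91, and without it and HMB tumors 4 and 5 it was 0.51. Col6a2, of microfibrils, reached the unadjusted threshold (1.43, SE 0.58), as did Serpinh1, the collagen chaperone, with 7 of 7 HMB tumors above the control mean (1.15, SE 0.46). Other matrix genes were higher in 17 of 20, with a median of 0.21, or 0.10 without HMB tumor 3. The mean level of 20 fibroblast and pericyte genes measured ran from 8.53 to 9.71 in control and 9.50 to 10.91 in HMB tumors. Its part in the collagen difference was not tested. Only 7 of these genes were above background, 4 higher and 3 lower, with a median of 0.09. The smooth-muscle actin Acta2 differed by 1.23 (SE 0.64), but Pdgfrb, the other defining marker, by -0.58 (SE 0.38).

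Muscle and fat transcripts differed widely between single HMB tumors. Skeletal muscle genes were higher in 33 of 34 measured, 2 at the unadjusted threshold beside 3.14% of all genes. Only Tnni2 (0.62, SE 0.51) and Tpm2 (0.99, SE 0.44) were above background. Tpm2, tropomyosin of muscle and stroma, was at 11.01, 11.82 and 12.14 in control and 11.95, 12.38 and 15.03 with HMB, the highest value being that of tumor 5. Myl1, a fast-fiber myosin light chain, had the largest mean difference of the list, 5.06 (SE 1.60), from means of 4.79 and 9.86 that are both below background. Adipocyte genes were higher in 19 of 19, 0 at the threshold, and Fabp4, the fatty acid carrier of adipocytes, was at 9.89, 12.16 and 13.40 in control and 10.13, 12.18 and 17.45 with HMB (1.94, SE 1.55). The medians were nearly equal, so the mean was carried by the high tumors.

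Genes of simple epithelium were higher in 15 of 17 measured, 6 of them at the unadjusted threshold (p under 0.05, where 3.14% of all genes were higher), but only Krt8, Krt18 and Cdh1 were above background in both groups. These 3 differed by 0.39 (SE 0.28), 0.17 (SE 0.31) and 0.07 (SE 0.74). Krt7, a keratin of ductal epithelium, was at 6.06, 8.18 and 11.73 in control and 8.84, 10.39 and 15.66 in HMB tumors (3.07, SE 1.08), with the mean above background only with HMB. The other 5 lay below background in both groups: the splicing regulators Esrp1 (2.67, SE 0.76) and Esrp2 (0.82, SE 0.31), the keratin Krt19 (2.31, SE 0.79), the adhesion molecule Epcam (1.71, SE 0.82) and Erbb3, a receptor of the EGF receptor family. Erbb3 ran from 2.96 to 4.12 in control and from 3.92 to 6.25 in HMB tumors (1.35, SE 0.29, limma adjusted p = 0.33) and was one of the 6 genes with the smallest adjusted p. The mean level of the 17 genes ran from 6.65 to 7.50 in control and from 6.86 to 9.20 in HMB tumors, of which tumors 1, 4 and 5 lay above every control tumor. Without the 3 tumors far out on the principal components 13 of 17 were higher, 3 at the threshold (Krt19, Esrp1 and Erbb3). In tumors of anti-PD1-treated mice Krt19 differed with HMB by -2.33 (SE 0.79) and Esrp1 by -2.03 (SE 0.76), and neither interaction passed the adjusted threshold of limma. Without anti-PD1, skin keratinocyte genes were also higher with HMB in 14 of 16 measured. Of these only Krt14, below background, was at the threshold (2.56, SE 1.13). Trp63, the only member above background, differed by -0.14 (SE 0.31).

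General cell functions were close to level. Ribosomal protein genes had 16 higher and 17 lower of 33 (median -0.01), with Rps16 at the threshold (0.32, SE 0.15). Cell cycle genes were lower in 14 of 19, 0 at the threshold, with a median of -0.07 that was 0.027 without control tumor 6, and the proliferation antigen Mki67 was at 14.06, 14.86 and 15.37 in control and 14.42, 14.71 and 15.50 in HMB tumors (0.08, SE 0.22). Reference genes had 5 higher and 6 lower of 11, and Actb differed by 0.04 (SE 0.09). Immediate early and heat shock genes were higher in 7 of 9, with Jund at the threshold (0.59, SE 0.26) beside Egr1 (0.57, SE 0.31) and Junb (0.58, SE 0.30), which with Fosl2 encode AP-1 subunits or a partner induced with them. Of 9 pancreatic cancer genes, 5 were higher and 4 lower. Tgfbr1, the type I receptor of TGF-β, was at the threshold (-0.52, SE 0.22) and Myc differed by 0.21 (SE 0.25).

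**Figure D4:**
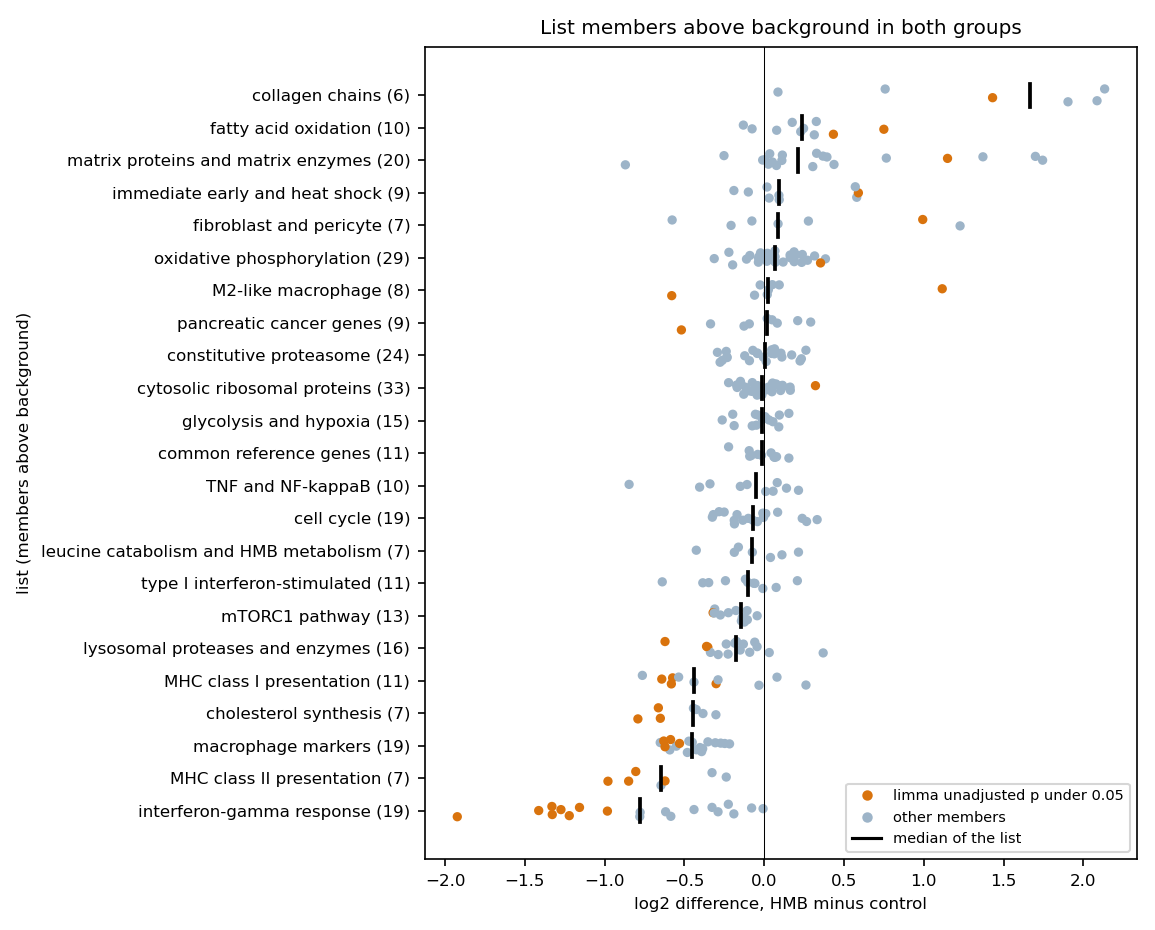
Log2 difference (HMB minus control) of each list member above background in both groups, 1 row per list with its number of members, the median as a black bar and members at a limma unadjusted p under 0.05 in orange. The medians run from -0.78 for the interferon-gamma response to 1.67 for collagen chains.

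Further genes measured by the study at the protein or RNA level, and the gene of the antibody's target, lay below background. The study stained CD3 in tumors of its other experiment, on lean and obese mice. It measured Myod and Myh7 in cultured C2C12 myotubes, so those results are from other material than these tumors. Cd3e, of the T cell receptor complex, was below background, at 7.52, 10.28 and 10.91 in control and 7.01, 8.93 and 11.24 with HMB (-0.76, SE 0.66). Pdcd1, which encodes PD1, was below background too (-0.32, SE 0.59), as were the muscle genes Myod1 (-0.08, SE 0.21) and Myh7 (0.46, SE 0.50). Without HMB tumor 5 the difference of Myh7 was -0.018. No named probe set was present for Foxp3 or for Cd38, whose protein the study reported as higher in tumor macrophages with HMB. Next to the background level, the lower group means of Pigs (difference 0.31) and Msra (-0.37) lay just inside, and those of Msl2 (0.20) and Ankrd28 (-0.10) just outside.

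In tumors of anti-PD1-treated mice, which share no tumor with the groups above, HMB was accompanied by other values. With limma, 0 of 19505 genes passed the adjusted threshold when anti-PD1 + HMB was set against anti-PD1, and 815 (4.18%) had an unadjusted p under 0.05. The test of the difference between both HMB effects, the interaction, also called 0 genes after adjustment, and 1086 (5.57%) had an unadjusted p under 0.05. Of the 88 higher genes, 30 (34.1%) were higher there too, and of the 134 lower genes, 72 (53.7%) were lower there too, beside 40.3% higher and 59.7% lower among the 4050 genes. The median difference in these tumors was -0.12 for the interferon-gamma genes, 0.09 for MHC class II, -0.19 for macrophage markers, -0.07 for cholesterol synthesis and -0.29 for collagen chains. Gbp2 differed there by -0.36 (SE 0.62), Ctss by -0.15 (SE 0.17), Lpcat2 by 0.09 (SE 0.33) and Acaa2 by 0.41 (SE 0.24). Gcnt2 (-0.58, SE 0.26) and Gpr137b (-0.50, SE 0.23) stood on the opposite side from their difference without anti-PD1.

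**Figure D5:**
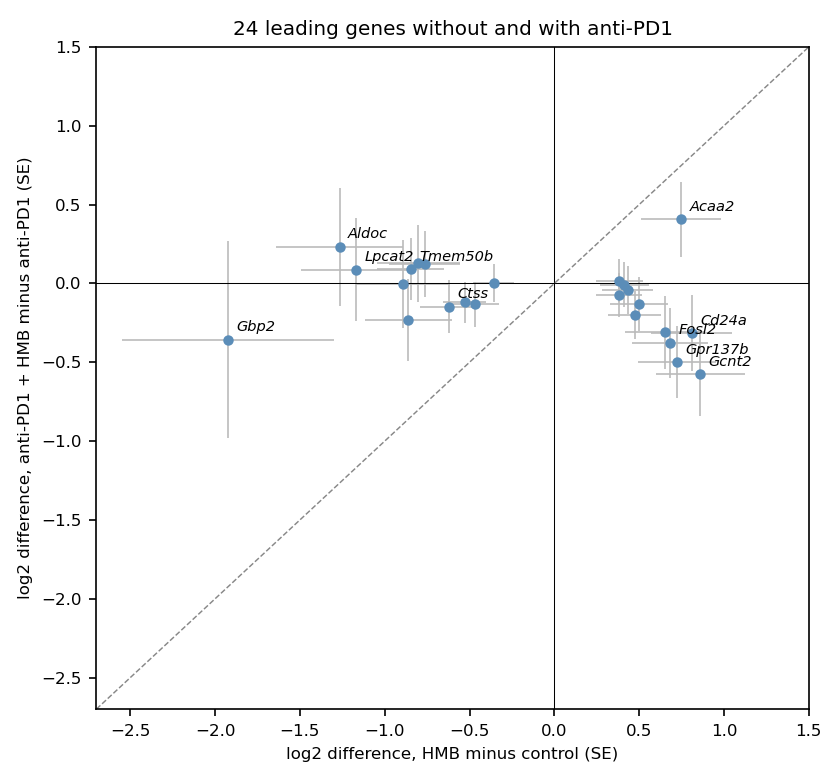
Log2 difference with HMB in tumors without anti-PD1 (horizontal) and with anti-PD1 (vertical) for the 24 leading genes, with SE as bars and the line of equality dashed. The genes were chosen on the horizontal values, and on the vertical axis they lie between -0.58 and 0.41.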

How the data were processed

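RNA of 26 whole Panc02 tumors was measured on Clariom S arrays. The authors deposited 1 processed log2-scale value per probe set and tumor, from 1.08 to 19.3 over 28846 probe sets. How they were normalized is not given in the sources used here, nor is the log base (2 was assumed), and nothing was normalized again. Of the probe sets, 19572 had a symbol in the platform listing. Where a gene had several (55 genes), the brightest probe set on average stood for it, giving 19505 genes. Above background means a group mean over the 95th percentile of the 5222 negative-control probe sets.

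Groups came from the titles. The difference HMB minus control was estimated in R 4.3.3 with limma 3.58.1 (lmFit and eBayes, two-sided, Benjamini-Hochberg over all genes), in 1 fit of all 26 tumors with 1 mean per group. No label says that tumors came from separate cages or runs, so p-values measure only the spread between tumors. That spread, also behind each SE, was taken within groups over all 26 tumors, those with anti-PD1 included. The steps were tested on simulated data.

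Named were the 12 genes above background with the smallest p in each direction, the 4 with the smallest p in each of 35 lists with any further member of lists described at length, genes the study measured or named, and 4 genes next to background. Members and lists were chosen with earlier results of these data known. The lists hold 729 measured genes of 813. Alternatives were quantile normalization, median centering, array weights, an intensity trend with robust variance, the mean of probe sets, only the 13 tumors, the replicate block, the methods' t-test, other background rules and leaving out tumors. Sequences were taken from RefSeq promoters of GRCm38.p6, and no other coordinates were used.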

Additional observations from a re-analysis of the deposited data

Results flagged for a closer look

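Within a group, 30 of 334 gene or list levels had 1 tumor far from the rest, by Dixon's criterion, where chance alone sets apart about 1 in 20. Control tumor 4 accounted for 14 of them: it was lowest for Bclaf1 (12.36), Col1a1 (7.47), Col1a2 (6.53), Col3a1 (9.48), Etfa (11.59), Postn (8.41), the mean collagen level (10.09) and the mean matrix level (12.72). It was highest for Myod1 (3.45), Ndufa9 (11.54), Pecam1 (12.51) and the mean TNF and NF-κB (13.71), endothelial (12.69) and ribosomal protein (16.61) levels. Control tumor 3 was lowest for Cd3e (7.52), Cxcl9 (13.40), Lair1 (12.42) and Tgfbi (14.12), and control tumor 2 for the mean M1-like level (12.18). HMB tumor 4 was lowest for Cyp51 (11.36), Lamtor3 (11.88) and the mean M1-like (11.29) and reference gene (15.73) levels. HMB tumor 5 was lowest for H2-K1 (14.83) and highest for Myh7 (6.97), Tpm2 (15.03) and the mean muscle (14.79) and ribosomal protein (16.51) levels. HMB tumor 2 was lowest for Col1a2 (11.81) and HMB tumor 3 for the mean oxidative phosphorylation level (13.15). The causes were not tested.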

How the results depend on the processing

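In every alternative run, limma or the methods' t-test called 0 genes at an adjusted p under 0.05, including the fit of bright genes alone. The 24 leading genes kept their sign in all settings run over them, and all had an unadjusted p under 0.05 except 7 of them without the 3 tumors far out on the principal components (17 of 24 did) and Acaa2 without the 3 HMB tumors high in adipocyte genes (23 of 24 did). These 24 genes were picked for their small p in these same tumors, so the reruns are no independent test of them. The 88 higher genes became 54 with median centering, 7 with the 99th percentile as background, 28 without those 3 tumors, and 50 to 130 with each tumor left out. The 134 lower genes became 183 with median centering, 15, 31 and 73 to 204 in the latter 3 settings, and 59 without the 3 HMB tumors high in adipocyte genes. Median centering moved the lower share of genes from 54.8% to 60.5%. The interaction called 0 to 1 genes with each tumor left out. Tumors of equal number in the titles did not pair (correlations of -0.08 to 0.18 in 6 pairs, 2 over 0.1, 0 best with their own number), and the replicate block gave 0 called, 115 higher and 132 lower genes. The leave-out settings of 3 tumors were chosen after seeing the data.

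Of 3050 alternative values of 138 genes, 49 had the other sign, over 18 genes with small differences, and the causes were not tested. With each tumor left out, Ankrd28 ran from -0.16 to 0.017, Cdh1 from -0.28 to 0.47, Krt18 from -0.046 to 0.32, Mki67 from -0.066 to 0.20, Mrc1 from -0.051 to 0.31, Myh7 from -0.018 to 0.59, Myod1 from -0.15 to 0.097, Nrip1 from -0.064 to 0.31, Pecam1 from -0.27 to 0.13, Ptgs2 from -0.38 to 0.089, Selenop from -0.082 to 0.22, Tlr4 from -0.075 to 0.16 and Trp63 from -0.27 to 0.050. Without the 3 tumors far out, Cdh1 was at -0.71, Gusb 0.045, Krt18 -0.073, Myod1 0.12, Pdcd1 0.34, Pecam1 0.11, Pgam1 0.017, Ptgs2 0.16, Slc2a1 0.057 and Tpm1 -0.12. Array weights gave Cdh1 -0.10 and Myod1 0.0097, median centering Tlr4 -0.015, and the replicate block Selenop -0.043. Of 720 alternative medians of 32 lists, 719 moved by less than the spread between tumors, but leaving out 1 tumor turned the sign of 12 medians (none over 0.14 in size) and moved 25 by over 1.5 times. The number of arrays and values near background limit what can be told apart.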
